A study of Mus musculus with 6 samples.

Results

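Patrolling monocytes were studied here as they appeared in droplet single-cell RNA sequencing of whole mouse kidneys, either untransplanted or carried as an allograft. Of 60181 deposited barcodes, 49797 were kept (a minimum of 500 unique molecular identifiers, UMIs, and of 250 genes, with no more than 50% of UMIs mitochondrial), and 1289 of these were patrolling monocytes. A kept barcode was counted as a patrolling monocyte when it held UMIs of at least 2 of the 4 genes Ace, Ear2, Adgre4 and Treml4, fewer than 10 UMIs of C1qa, C1qb and C1qc together, no UMI of Cd3e, Cd79a or Top2a, and at least 1 UMI of Ptprc or Csf1r. The members were thus chosen by measured values, and the genes in the rule are given below as a description, with no test.

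The study compared kidneys that were rejected with kidneys to which the recipient had been made tolerant. Naive kidneys came from untransplanted male C57BL/6 (B6) mice of 10 to 12 weeks. Rejecting kidneys were BALB/c grafts, from mice of 6 to 7 weeks, placed in male B6 recipients whose own kidneys had both been removed, left without treatment and taken on day 15. Tolerized kidneys were the same grafts taken on the same day from recipients that were also infused with donor cells around the time of transplantation. The infused cells were BALB/c splenocytes fixed with ethylenecarbodiimide (ECDI). Each group had 2 kidneys, all flushed with cold PBS before dissociation, and donor and recipient cells were not separated here. The recipients were of the B6 strain, like the naive mice. Strain and age of the kidney, transplantation and the gene list of the deposited matrices differed together between naive and transplanted kidneys, so their parts in any difference from naive kidneys cannot be told apart.

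Monocytes of the mouse leave the marrow as Ly6C-high classical cells, which enter inflamed tissue, and part of them convert to Ly6C-low patrolling cells that stay in the vessels. Patrolling monocytes crawl along the endothelium of capillaries by the integrin LFA-1, survey it for damage and, in the kidney, are known to patrol the glomerular vessels. Their conversion depends on the nuclear receptor Nr4a1 and on C/EBPβ, and their survival on the fractalkine receptor Cx3cr1.

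The 2 naive kidneys held 17 and 25 patrolling monocytes, the 2 rejecting kidneys 340 and 284, and the 2 tolerized kidneys 431 and 192. No barcode of a member was shared between libraries. Their median depth was 2145 and 2485 UMIs (naive), 4023.5 and 3305 (rejecting), and 6292 and 6052.5 (tolerized), so the tolerized cells held the most UMIs. The median number of genes per member followed the same order, with 993 and 968 (naive), 1599.5 and 1449 (rejecting), and 2131 and 2086.5 (tolerized). Median mitochondrial share was 7.23% and 12.3% in naive members and lay between 3.02% and 3.85% in the 4 transplanted kidneys. Summed over the members, the libraries held 43304 and 68952 UMIs (naive), 1573328 and 1092884 (rejecting) and 3099317 and 1351118 (tolerized), so naive values rest on few molecules. Intervals and limits below cover counting error only.

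The 4 marker genes of the rule differed in function. Ace (chromosome 11, 105967945 to 105989964, plus strand, GRCm38) encodes angiotensin-converting enzyme, Ear2 (chromosome 14, 44102654 to 44103534, plus strand) a secreted ribonuclease, and Adgre4 (chromosome 17, 55749984 to 55853662, plus strand) an adhesion receptor of the F4/80 family. Treml4 (chromosome 17, 48264295 to 48275360, plus strand) encodes a TREM-like receptor. On the raw CPM scale (UMIs of the gene per 1000000 UMIs of the members in that kidney), Ace stood at 278 and 509 (naive), 347 and 413 (rejecting) and 425 and 445 (tolerized). Ear2 stood at 671 and 654 (naive), 179 and 315 (rejecting) and 351 and 358 (tolerized). Adgre4 stood at 532 and 305 (naive), 267 and 285 (rejecting) and 232 and 332 (tolerized). Ear2 was thus highest in both naive kidneys, while Adgre4 of rejecting and tolerized kidneys overlapped. Treml4 was lowest in naive kidneys, at 255 and 218 raw CPM, against 375 and 426 (rejecting) and 298 and 366 (tolerized).

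At the edge of the rule, 449 members held exactly 2 of the 4 markers, with a median of 4593 UMIs, while 1174 barcodes held 1 marker and were left outside, with a median of 8157.5 UMIs. Of the members in tolerized 1, 172 held all 4 markers, 127 held 3 and 132 held 2. In rejecting 1 the numbers were 60, 124 and 156, and the share with all 4 markers was thus lower in that shallower library. On the side of C1q, 6 members had 7 to 9 UMIs of the 3 complement genes, and 3 barcodes with 2 or more markers had 10 to 12 and stayed outside. In all, 285 barcodes with 2 or more markers had 10 or more C1q UMIs and were not counted as patrolling monocytes, and their median depth was 12901 UMIs.

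Patrolling monocytes formed a larger share of leukocytes in tolerized than in rejecting kidneys. Among kept barcodes with Ptprc (CD45, the pan-leukocyte antigen), they made up 9.22% (95% Wilson interval 8.42 to 10.1) of 4621 in tolerized 1 and 8.40% (7.32 to 9.62) of 2250 in tolerized 2. In rejecting 1 and rejecting 2 they made up 5.02% (4.52 to 5.57) of 6671 and 5.07% (4.52 to 5.68) of 5525. The groups did not overlap, at 8.81% ± 0.579 (SD, n = 2) in tolerized and 5.04% ± 0.0326 (SD, n = 2) in rejecting kidneys. An exact permutation test of 2 against 2 kidneys (two-sided) gave p = 0.3333, the smallest p this test can give with 2 against 2, so it could not pass a threshold of 0.05 for any difference in numbers. In naive kidneys the share was 9.29% (5.88 to 14.4) of 183 and 11.2% (7.59 to 16.3) of 205 barcodes, with intervals that overlapped those of the tolerized kidneys.

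Relative to monocytes and macrophages the order of the groups differed. Among barcodes with Csf1r, the receptor for the growth factor of these cells, and without Cd3e or Cd79a, patrolling monocytes made up 19.1% (17.5 to 20.8) and 26.0% (22.9 to 29.4) in tolerized kidneys. The same share was 14.2% (12.8 to 15.8) and 11.8% (10.5 to 13.3) in rejecting kidneys, and 6.95% (4.11 to 11.5) and 7.23% (4.57 to 11.3) in naive kidneys. None of the groups overlapped (tolerized 22.6% ± 4.88, rejecting 13.003% ± 1.69, SD, n = 2 each; exact permutation p = 0.3333 for tolerized against rejecting, two-sided). Among members without a UMI of Ly6c2 or Ccr2 the groups overlapped in this share, at 6.51% and 13.7% (tolerized) against 6.63% and 6.08% (rejecting), and the difference of the means was 3.76 percentage points in place of 9.56. Over all members that difference was 6.11 without tolerized 2. The difference in the share of Ptprc barcodes was 1.23 percentage points among these members in place of 3.76, without overlap. Members without a UMI of Ly6c2 or Ccr2 were 34.6% and 52.1% of the members in tolerized and 47.4% and 53.9% in rejecting kidneys. This limit was put on the members only, not on the barcodes they were set against. Tolerized members were also deeper, and what part depth had in this setting was not tested. As a percentage of all kept barcodes, the cells made up 4.39% (4.0 to 4.81) and 2.79% (2.43 to 3.21) in tolerized, 2.90% (2.61 to 3.22) and 3.52% (3.14 to 3.94) in rejecting, and 0.235% (0.147 to 0.377) and 0.413% (0.280 to 0.609) in naive kidneys. Here tolerized and rejecting kidneys overlapped, with a difference of 0.384 percentage points, and both transplanted groups lay above the naive kidneys. With 3 of the 4 markers required, the difference was 0.879 percentage points and they did not overlap.

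The libraries differed in depth, and depth can set such shares. After every barcode of at least 1000 UMIs was thinned to 1000 UMIs, the share of Ptprc barcodes was 5.91% and 5.34% in tolerized and 2.78% and 3.33% in rejecting kidneys, still without overlap, and 9.86% and 7.07% in naive kidneys. The thinned share of Csf1r barcodes was 11.6% and 18.3% (tolerized), 6.64% and 7.98% (rejecting), and 11.1% and 6.10% (naive), so that naive and rejecting kidneys then overlapped. When members with any UMI of the tubule genes Lrp2, Kap or Slc34a1 were left out, none remained in tolerized 2 and in both naive kidneys, and the order of tolerized and rejecting kidneys turned in every share. Only members were filtered in this setting, not the barcodes they were set against. Kap alone was found in 100% and 100% (naive), 79.7% and 49.3% (rejecting) and 93.3% and 99.5% (tolerized) of members. The setting thus follows the spread of Kap RNA, and nothing is read from the turn.

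**Figure D1:**
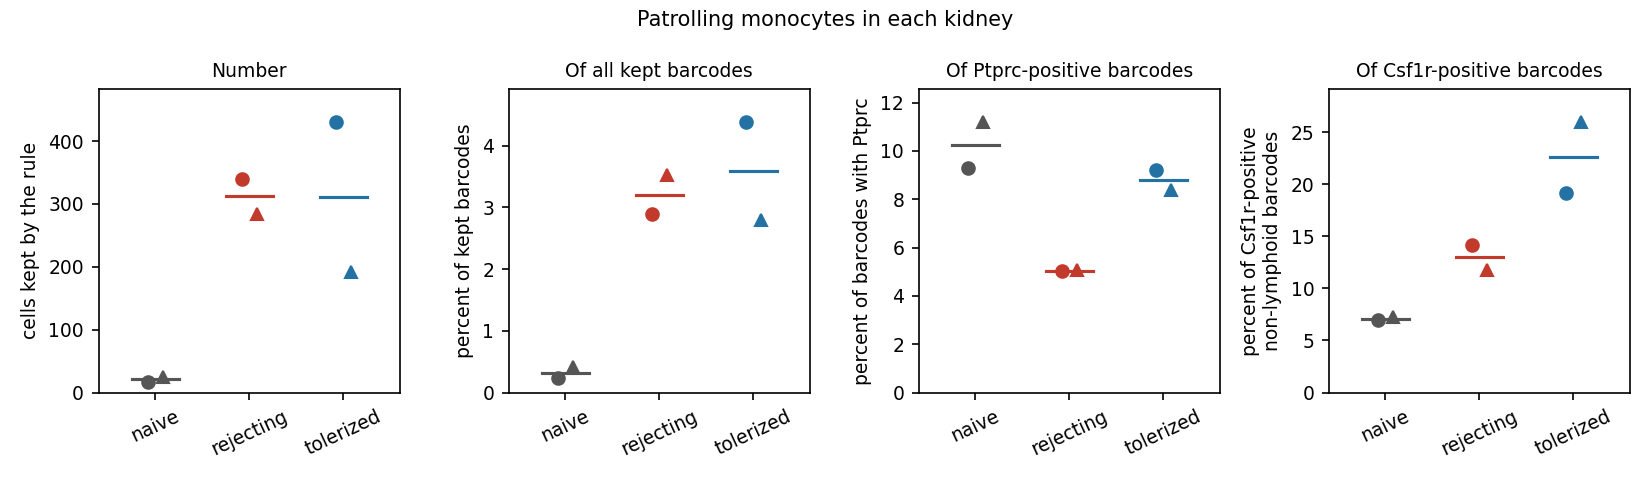
Number of patrolling monocytes and their percentage of kept barcodes, of Ptprc barcodes and of Csf1r non-lymphoid barcodes in each kidney (y axes) by group (x axis). Circles are replicate 1, triangles replicate 2 and lines group means; the share of Ptprc barcodes is 9.22% and 8.40% in tolerized against 5.02% and 5.07% in rejecting kidneys.

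The members were also described by 21 genes known from patrolling monocytes that the rule did not use. This list was chosen with earlier results of these data known, so it is no independent check of the label. All 21 were detected in the members of each transplanted kidney, and they were compared with 2 other classes cut from the same kidneys. Ly6c2 monocytes (771 barcodes: at least 2 UMIs of Ly6c2, 1 of Ccr2 and 3 of Lyz2, with the same limits on C1q and lymphoid genes and fewer than 2 of the 4 markers) stood for classical monocytes. C1q-high macrophages (3170 barcodes: at least 20 C1q UMIs and 1 of Csf1r, and fewer than 2 markers) stood for tissue macrophages. Median depths in the 4 transplanted kidneys were 5615 to 9390 UMIs in Ly6c2 monocytes and 8746.5 to 15236 in C1q-high macrophages, above those of the patrolling monocytes. Because all 3 classes were cut by marker genes, genes that vary with those markers are not independent of the cut, and the calls between classes describe the classes. UMIs were summed per class and kidney over the 4 transplanted kidneys, with the kidney as a block.

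All 21 patrolling genes were higher in patrolling than in Ly6c2 monocytes at a false discovery rate (FDR, Benjamini-Hochberg) of 0.05 in edgeR's quasi-likelihood test, with a median log2 fold change of 2.00. Across all 9107 genes tested, 12.8% were higher and 15.1% lower, and the median was -0.0037. Cd300e, an activating receptor of monocytes, stood at 170, 164, 136 and 187 CPM (TMM-scaled, in the order rejecting 1, rejecting 2, tolerized 1, tolerized 2) against 2.59, 0, 3.57 and 3.73 CPM in Ly6c2 monocytes (log2 fold change 6.08 ± 0.33 SE). S1pr5, the sphingosine-1-phosphate receptor that lets these cells leave the marrow, stood at 42.7, 53.2, 45.6 and 79.2 CPM against 0.648, 0.712, 2.04 and 1.86 CPM (5.25 ± 0.34 SE). Both genes were thus close to absent from Ly6c2 monocytes in every kidney.

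Nr4a1 (chromosome 15, 101254269 to 101274795, plus strand), on which the lineage depends, stood at 312, 585, 368 and 657 CPM in patrolling monocytes. In Ly6c2 monocytes it stood at 104, 189, 155 and 129 CPM (1.69 ± 0.19 SE), and in C1q-high macrophages at 14.5, 44.7, 26.0 and 15.7 CPM (4.23 ± 0.20 SE). Patrolling monocytes were the highest of the 3 classes for Nr4a1 in each of the 4 kidneys. Spn (CD43, a sialoglycoprotein by which these cells are sorted) stood at 192, 272, 244 and 314 CPM against 39.5, 29.9, 35.7 and 35.4 CPM in Ly6c2 monocytes (2.80 ± 0.13 SE). Itgal, the alpha chain of LFA-1, stood at 532, 532, 543 and 608 CPM against 189, 137, 170 and 132 CPM (1.81 ± 0.12 SE). Pou2f2 (OCT2, 2.00), the survival factor Bcl2 (2.22), the Notch target Hes1 (2.81), the activating Fc receptor Fcgr4 (2.63) and the fatty acid receptor Cd36 (3.77) were also higher, given as log2 fold changes. Gngt2, a G protein gamma subunit and the list's most abundant gene by CPM, had 1260 CPM on average against 397 CPM (1.67 ± 0.11 SE).

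Cx3cr1 (chromosome 9, 119901616 to 120069879, minus strand) stood at 125, 129, 215 and 226 CPM in patrolling monocytes. In Ly6c2 monocytes it stood at 80.4, 62.0, 113 and 108 CPM (log2 fold change 0.91 ± 0.11 SE), and in C1q-high macrophages at 193, 200.5, 254 and 324 CPM (-0.50 ± 0.10 SE). The fractalkine receptor therefore did not set patrolling monocytes apart from macrophages: it was lower in them than in C1q-high macrophages in all 4 kidneys. Fcgr4 was the other gene of the list that was lower than in C1q-high macrophages (-0.41 ± 0.12 SE), a call that was lost without tolerized 1 (adjusted p = 0.109). In all, 17 of the 21 genes were higher than in C1q-high macrophages and 2 lower (median 2.17), where 27.0% of all genes were higher and 26.5% lower. Pglyrp1, a peptidoglycan-binding protein, stood at 149, 198, 159 and 279 CPM against 1.54, 1.16, 0.675 and 0.732 CPM in the macrophages (7.38 ± 0.18 SE).

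**Figure D2:**
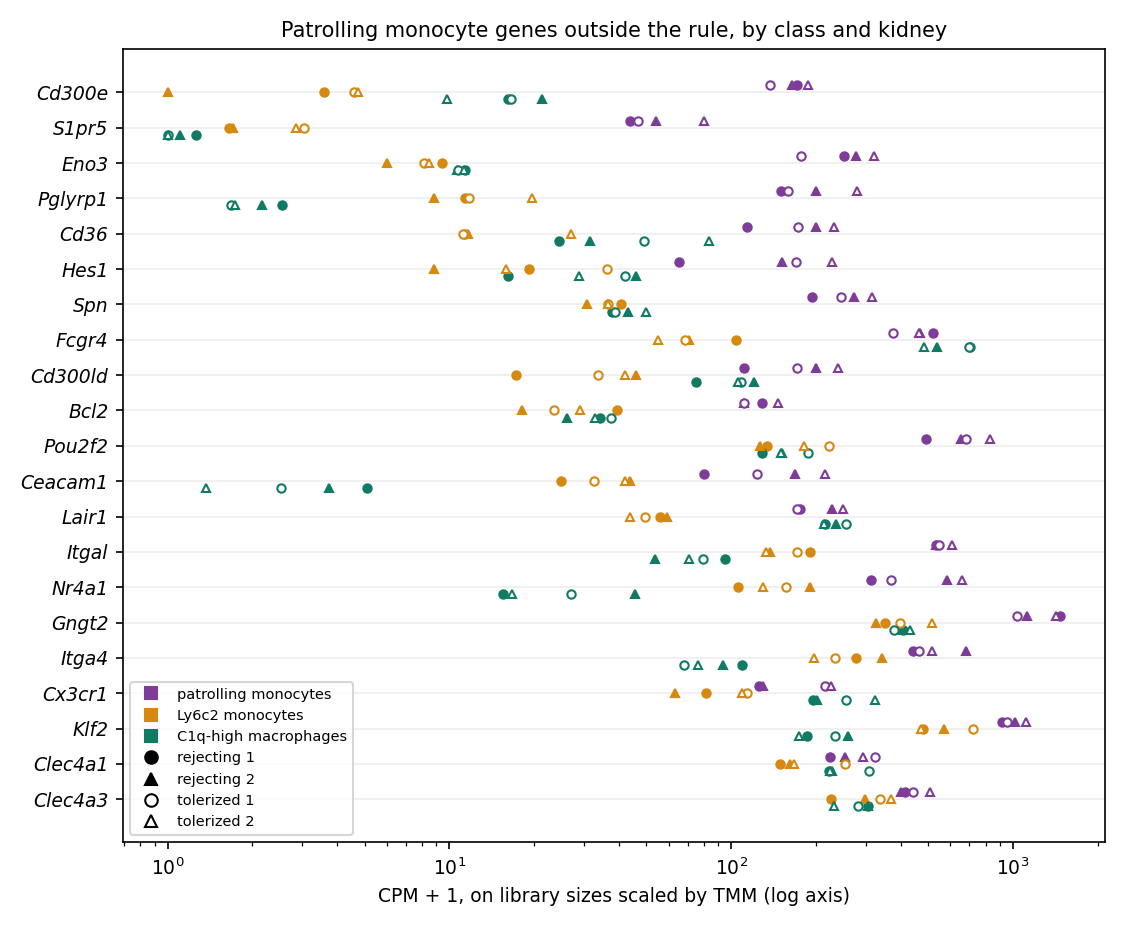
CPM + 1 (TMM-scaled, log axis) of 21 genes known from patrolling monocytes and not used in the rule, in patrolling monocytes, Ly6c2 monocytes and C1q-high macrophages of the 4 transplanted kidneys. Filled symbols are rejecting and open symbols tolerized kidneys; Cd300e, S1pr5 and Nr4a1 are highest in patrolling monocytes, while Cx3cr1 is highest in the macrophages.

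Classical monocyte genes ran the other way. All 12 tested genes of that list were lower in patrolling than in Ly6c2 monocytes (median log2 fold change -2.07), where 15.1% of all genes were lower. Ly6c2 and Ccr2 were left out of this count as genes of the cut. Of the 1289 members, 424 (32.9%) held a UMI of Ly6c2 and 581 (45.1%) of Ccr2. Neither gene was found in 592 members (45.9%), and in tolerized 1 this share was 34.6%. F13a1, the coagulation factor XIII A chain, stood at 15.1, 21.3, 45.3 and 12.6 CPM against 192, 231, 331 and 177 CPM (-3.35 ± 0.17 SE). The extracellular matrix gene Fn1 was lower by -3.00 ± 0.28 SE on the log2 scale. Against C1q-high macrophages, 10 of the 12 classical genes were higher in patrolling monocytes (27.0% of all genes), among them Plac8 (3356 against 210 CPM on average), and Lyz1 was lower (-4.01 ± 0.35 SE). Patrolling monocytes thus had levels of Plac8 between those of the other classes.

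Macrophage genes outside the rule were low in patrolling monocytes. All 10 tested were lower than in C1q-high macrophages (26.5% of all genes), with a median log2 fold change of -4.35. Mrc1, the mannose receptor, stood at 1.20, 0.819, 1.18 and 0.740 CPM against 251, 264, 165 and 135 CPM (-7.49 ± 0.21 SE). Apoe, a lipid carrier of macrophages, stood at 1188, 1637, 1913 and 1836 CPM against 19029, 17648, 21787 and 17625 CPM (-3.54 ± 0.13 SE). Axl, a receptor for phosphatidylserine-bridging ligands that the study examined, stood at 13.8, 18.0, 14.4 and 14.1 CPM against 232, 191, 242 and 265 CPM in the macrophages (-3.97 ± 0.13 SE). It was also lower than in Ly6c2 monocytes, which had 36.3, 26.4, 34.7 and 31.7 CPM (-1.15 ± 0.16 SE). Axl was the lowest in patrolling monocytes of the 3 classes in every transplanted kidney.

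Among 22 lineage transcription factors, 10 were higher and 4 lower than in Ly6c2 monocytes (12.8% and 15.1% of all genes). Against C1q-high macrophages 11 were higher and 4 lower (27.0% and 26.5% of all genes). Cebpb, which encodes C/EBPβ, stood at 1447, 2342, 1071 and 2054 CPM in patrolling monocytes, 892, 1975, 832 and 971 CPM in Ly6c2 monocytes (0.60 ± 0.11 SE) and 449, 861, 385 and 468 CPM in C1q-high macrophages (1.69 ± 0.11 SE). The order patrolling, Ly6c2, C1q-high held in each kidney, although Cebpb also varied between kidneys of a group. Tcf7l2, a factor of the Wnt pathway, was higher than in Ly6c2 monocytes (log2 fold change 2.27). Klf2, a factor of quiescence and egress, was higher (0.85 ± 0.12 SE).

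Of 10 survival genes 5 were higher and 1 lower than in Ly6c2 monocytes, where 12.8% of all genes were higher and 15.1% lower. Bcl2a1b, an anti-apoptotic gene with near-identical copies among which reads can be split, stood at 238, 723, 407 and 521 CPM against 94.6, 245, 152 and 276 CPM (1.32 ± 0.11 SE). Of 16 adhesion and crawling genes 8 were higher and 1 was lower. The widely expressed actin regulators Coro1a (log2 fold change 0.16 ± 0.07 SE) and Cdc42 (-0.15 ± 0.06 SE) did not pass.

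Type I interferon-stimulated and class II genes were lower in patrolling than in Ly6c2 monocytes of the same kidneys. Of 26 type I interferon-stimulated genes 24 were lower and none was higher (median log2 fold change -0.84), where 15.1% of all genes were lower and 12.8% higher. Isg15, a ubiquitin-like modifier, stood at 309, 255, 147 and 107 CPM against 651, 716, 392 and 444 CPM (-1.47 ± 0.14 SE). Of 11 class II and costimulatory genes 9 were lower, with H2-Ab1, a class II beta chain, at 2759, 2912, 2745 and 2561 CPM against 3412, 3684, 3121 and 4696 CPM (-0.42 ± 0.09 SE). Cd74, the invariant chain, was lower by -0.29 ± 0.09 SE, and this call was lost in DESeq2 (adjusted p = 0.0675). Of 7 tested dendritic cell genes 5 were also lower and none was higher (median -2.40), among them Cd209a, a lectin of monocyte-derived dendritic cells, which stood at 31.1, 31.3, 19.4 and 123 CPM in Ly6c2 monocytes. Tolerized 2 thus had the highest Cd209a and H2-Ab1 in that class, and what part dendritic cell RNA had in the class II differences was not tested. Of 21 genes induced by interferon-γ 4 were higher and 6 lower (median -0.10), nearer to the shares of all genes.

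Of 22 chemokines and cytokines, 10 were lower in patrolling than in Ly6c2 monocytes (15.1% of all genes) and 1 was higher (12.8%). The higher gene was Il1b, which encodes interleukin-1β, at 1815, 2756, 1973 and 1643 CPM against 1060, 2674, 1651 and 753 CPM (0.55 ± 0.13 SE). Cxcl10, a chemokine for CXCR3-bearing T cells, stood at 713, 1241, 679 and 460 CPM against 1621, 2253, 1198 and 725 CPM (-0.89 ± 0.19 SE). Of 13 glycolysis genes 10 were lower and none higher, among them Gapdh with 813 against 1152 CPM on average. Ribosomal protein genes were lower in 69 of 87 and higher in 2 (median -0.29). Ccl8, a chemokine of tissue macrophages, was among the genes furthest below C1q-high macrophages, at 116, 18.0, 12.1 and 4.44 CPM against 7007, 5864, 4534 and 4825 CPM (-7.83 ± 0.46 SE).

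By fold change, the 8 genes furthest above Ly6c2 monocytes among those called were Vegfc, Adamdec1, Cd300e, S100a9, Slc12a2, Adrb1, Dnah12 and S1pr5. S100a9 stood at 2.41, 5.73, 183 and 52.6 CPM against 1.30, 0, 1.53 and 1.86 CPM. Its fold change thus rested mainly on the tolerized kidneys, tolerized 1 above all. Vegfc, a lymphatic growth factor, and Adamdec1, a secreted protease, had no UMI in Ly6c2 monocytes of the 4 kidneys and 5.58 to 22.1 and 6.66 to 13.2 CPM in patrolling monocytes. Slc12a2, a sodium-potassium-chloride transporter, stood at 93.9, 119, 123 and 180 CPM against 2.59, 0.712, 2.55 and 5.59 CPM (5.64 ± 0.30 SE). The 8 furthest below were Prtn3, Cd7, Cd209a, Mrc1, Siglec1, F13a1, C3ar1 and Ccr1. Prtn3, a protease of myeloid progenitors, stood at 1.20, 1.64, 2.06 and 0.740 CPM against 33.7, 25.6, 24.0 and 16.8 CPM (-3.99 ± 0.38 SE). Siglec1 rested on low counts, and its call was lost without rejecting 1 (adjusted p = 0.0532).

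RNA of other cells was present in the members. The 10 proximal tubule genes, led by Kap, summed to 6343 and 11649 raw CPM (naive), 5043 and 4353 (rejecting) and 8970 and 4182 in tolerized members. In all kept barcodes they summed to 34373 and 36540, 17168 and 11339, and 35080 and 25499 raw CPM in the same order. In the class comparison 6 of the 10 tubule genes were higher in patrolling than in Ly6c2 monocytes (12.8% of all genes) and none was lower (15.1%), and in tolerized 2 the order of the sums was the opposite (4182 against 6191 raw CPM). The 4 hemoglobin genes summed to 1169 raw CPM in the members of tolerized 1 and to at most 123 in those of the other kidneys. Over all kept barcodes their sum was 938 and 441 (naive), 589 and 84.2 (rejecting) and 75.0 and 4491 raw CPM (tolerized). There tolerized 2 was the highest. Among members, the 7 neutrophil genes summed to 479 raw CPM in tolerized 1, led by S100a9, 165 in tolerized 2, and 88.3 and 88.8 in the rejecting kidneys.

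In edgeR's quasi-likelihood test of tolerized against rejecting kidneys, 0 of 8464 genes (0.0%) passed an FDR of 0.05 in patrolling monocytes. On simulated counts the same test recovered 2.5% of 2-fold and 85.5% of 4-fold changes, so a gene without a call is not shown to be unchanged. At an unadjusted p under 0.05 there were 434 genes (5.13%), 200 higher (2.36%) and 234 lower (2.76%) in tolerized kidneys. For 33.9% of genes the groups did not overlap, 17.2% higher and 16.7% lower. The median log2 fold change of all genes was 0.0057. Leaving out 1 kidney moved these shares, so counts without a kidney are to be set against 5.87% higher and 5.55% lower at an unadjusted p under 0.05 without rejecting 1, 5.02% and 4.3% without rejecting 2, 1.89% and 2.18% without tolerized 1, and 1.78% and 1.93% without tolerized 2. DESeq2 called 22 genes, 9 higher and 13 lower, among them Gbp2, Gbp5 and Isg15 (lower) and S100a8 and S100a9 (higher). These counts include C1qa and C1qb, from whose values the members were chosen, and nothing is read from their calls. Values below are CPM (TMM-scaled within this comparison) in the order rejecting 1, rejecting 2, tolerized 1 and tolerized 2, and none of the genes named had an adjusted p under 0.05 in edgeR.

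Genes induced by interferon-γ stood lower in tolerized kidneys as a group. All 21 tested had a log2 fold change below 0, with a median of -0.81. Of these, 16 had an unadjusted p under 0.05, all lower (2.76% of all genes), and 19 did not overlap between the groups, all lower (16.7% of all genes). Without tolerized 2, 20 of 21 were below 0 and 5 had an unadjusted p under 0.05. Over the settings tried, the number below 0 was 19 to 22 of 21 to 22 tested, with medians from -1.08 to -0.64.

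Gbp2, a guanylate-binding protein of cell-autonomous defence, stood at 1026, 1124, 577 and 396 CPM (log2 fold change -1.14 ± 0.25 SE, adjusted p = 0.43, edgeR). Its relative Gbp5, which promotes inflammasome assembly, stood at 267, 315, 143 and 73.0 CPM (-1.41 ± 0.32 SE). Both were lower in both tolerized kidneys than in either rejecting kidney. The chemokine genes Cxcl9 and Cxcl10, whose products draw CXCR3-bearing T cells, stood at 1145, 1084, 803 and 512 CPM (-0.76 ± 0.26 SE) and at 767, 1333, 736 and 499 CPM (-0.76 ± 0.32 SE). For Cxcl10 the rejecting kidneys thus lay further apart than rejecting 1 and tolerized 2 did. Irf1, an interferon response factor, stood at 633, 773, 513 and 531 CPM (-0.43 ± 0.21 SE), and Cd274, which encodes PD-L1, at 111, 187, 94.7 and 92.3 CPM (-0.66 ± 0.27 SE). For Cxcl9, Cxcl10, Irf1 and Cd274 the groups did not overlap.

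**Figure D3:**
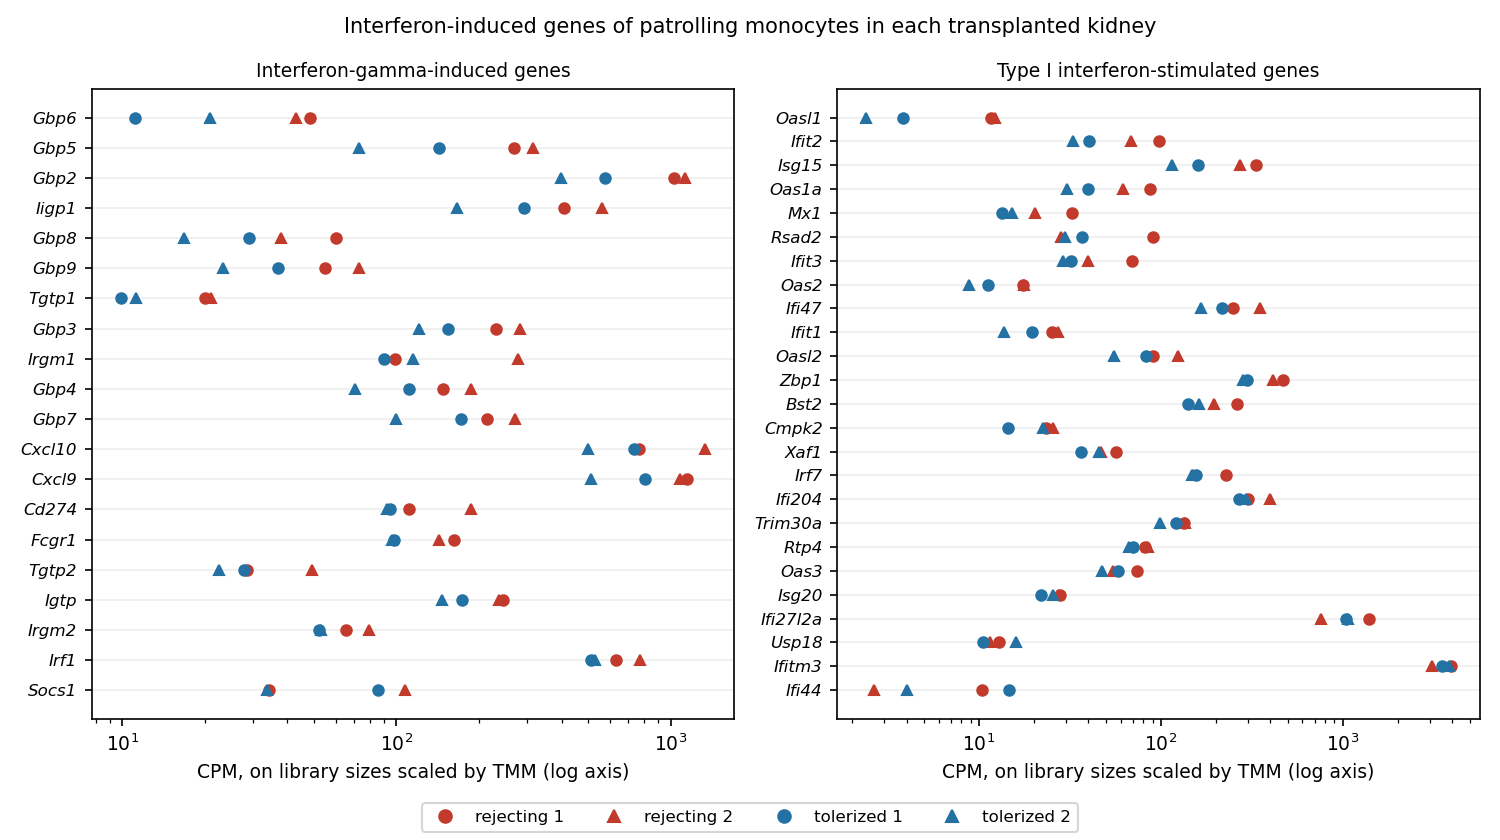
CPM (TMM-scaled, log axis) of 20 of the 21 tested interferon-γ-induced genes and of the 25 tested type I interferon-stimulated genes in patrolling monocytes of each transplanted kidney. Red symbols are rejecting and blue symbols tolerized kidneys; 18 of the interferon-γ genes plotted and 18 of the type I genes have both tolerized kidneys below both rejecting kidneys.

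Type I interferon-stimulated genes showed a similar lean, with 22 of 25 below 0 (median -0.60). For 18 the groups did not overlap, all lower in tolerized kidneys (16.7% of all genes), and 9 had an unadjusted p under 0.05, all lower (2.76%), a number that was 5 without tolerized 2. Without rejecting 1 the median was -0.38, with 19 of 25 below 0, 7 lower and 1 higher at an unadjusted p under 0.05. Isg15 stood at 333, 274, 159 and 116 CPM (-1.13 ± 0.24 SE), and Ifit2, which blocks translation of foreign RNA, at 97.8, 68.6, 40.2 and 32.9 CPM (-1.17 ± 0.26 SE). Zbp1, a sensor of Z-form nucleic acid, stood at 468, 411, 296 and 284 CPM. The 2 members of the list with the highest CPM overlapped between the groups: Ifitm3, an antiviral membrane protein, stood at 3909, 3091, 3499 and 3819 CPM (0.06) and Ifi27l2a at 1393, 756, 1040 and 1068 CPM (-0.03).

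Both interferon lists were followed in the other classes. Over the 21 interferon-γ genes, the median log2 ratio of tolerized to rejecting kidneys was -0.84 in patrolling monocytes, -0.66 in Ly6c2 monocytes and -0.47 in C1q-high macrophages, with all 21 below 0 in each class. None of the 21 differed in its change between patrolling monocytes and either class at an FDR of 0.05 (edgeR, interaction of class and group). At an unadjusted p under 0.05, 1 did against Ly6c2 monocytes (4.34% of all genes) and 4 against C1q-high macrophages (4.26%). Over 26 type I interferon-stimulated genes the medians were nearer to 0, at -0.50 in patrolling monocytes (23 below 0), -0.25 in Ly6c2 monocytes (18 below 0) and -0.24 in C1q-high macrophages (23 below 0). None of these 26 differed in its change at an FDR of 0.05 either, and 5 had an unadjusted p under 0.05 against each class (4.34% and 4.26% of all genes). The comparison between classes used the same kidneys. On simulated counts the interaction test against Ly6c2 monocytes recovered 39% of 4-fold differences, so a gene without a call is not shown to change alike. Across all genes, 7 of 9107 (0.0769%) differed in their change from Ly6c2 monocytes and 0 (0.0%) from C1q-high macrophages, where 388 had an unadjusted p under 0.05 and DESeq2 called 0.

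Over all members, antigen presentation genes had medians nearer to 0. Of 15 class I genes 14 were below 0 (median -0.47), 6 did not overlap between the groups, all lower (16.7% of all genes), and 3 had an unadjusted p under 0.05, all lower (2.76%). The last number was 0 without tolerized 1 (median -0.30) and 7 without rejecting 1 (median -0.40), where 5.55% of all genes were lower. Non-classical H2-Q4 stood at 187, 171, 84.8 and 107 CPM (-0.91 ± 0.21 SE), and Psmb8, an immunoproteasome subunit, at 1500, 1248, 955 and 970 CPM. The classical heavy chain genes and their light chain overlapped between the groups, with H2-K1 at 3547, 2643, 2796 and 3100 CPM, H2-D1 at 3080, 4069, 2709 and 3736 CPM and B2m at 2281, 3447, 2477 and 3345 CPM. H2-K1 and H2-D1 are polymorphic between the BALB/c and B6 strains, and reads of H2-D1, H2-K1 and H2-Q genes can be shared among close relatives. All 11 class II and costimulatory genes were below 0 (median -0.22), 4 without overlap. With each kidney left out that median was -0.26 to -0.13, nearest to 0 without tolerized 2. In the fit of all 4 kidneys 1 gene, Cd40, had an unadjusted p under 0.05, at 86.8, 97.7, 58.4 and 53.0 CPM (-0.72 ± 0.21 SE). Cd40 encodes the receptor through which T cells license antigen-presenting cells. Class II values depended on which members were summed: among members without a UMI of Ly6c2 or Ccr2, all 10 tested genes of the list were below 0 with a median of -0.72, and 8 had an unadjusted p under 0.05, all lower (2.43% of all genes there, with 1.97% higher). Cd74 stood at 9251, 8547, 8144 and 7488 CPM, and H2-Ab1 and H2-Aa at 2967, 3128, 2979 and 2777 CPM and 2574, 2706, 2554 and 2632 CPM.

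Between tolerized and rejecting kidneys, the median of the identity genes depended on single kidneys. Of the 21 patrolling genes 16 were above 0 (median 0.23), 6 were higher and 1 lower without overlap (33.9% of all genes in either direction), and 2 had an unadjusted p under 0.05, both higher in tolerized kidneys (2.36%). Without rejecting 2 the median was 0.47 and 8 genes had an unadjusted p under 0.05, all higher (5.02% of all genes there), while without tolerized 2 it was -0.0014 with 11 of 21 below 0. Cx3cr1 stood at 134, 138, 233 and 245 CPM (0.81 ± 0.20 SE, adjusted p = 0.531, edgeR), so both tolerized kidneys lay above both rejecting ones. Hes1 stood at 69.3, 161, 183 and 246 CPM (0.90 ± 0.38 SE), and Pou2f2 at 527, 699.5, 736 and 897 CPM (0.41 ± 0.24 SE). Nr4a1 stood at 335, 628, 399 and 713 CPM (0.20), Gngt2 at 1580, 1199, 1123 and 1539 CPM (-0.06), Klf2 at 984, 1088, 1036 and 1201 CPM (0.11), and Itgal at 572, 572, 590 and 659 CPM (0.13). Cebpb stood at 1556, 2516, 1162 and 2227 CPM (-0.27), and for it and for Nr4a1 the kidneys of each group lay further apart than the group means. Axl was at 14.9, 19.4, 15.6 and 15.2 CPM, low in all 4 kidneys.

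None of the tested genes of the transcription factor list (22, median 0.01) or of the adhesion list (16, median 0.07) had an unadjusted p under 0.05. Without rejecting 2, 3 genes of each list did, all higher (medians 0.23 and 0.14), and without rejecting 1, 2 transcription factors and 1 adhesion gene did, all lower (medians -0.13 and -0.06). Without tolerized 1, 1 transcription factor was higher and 1 adhesion gene lower at that level, and without tolerized 2, 1 transcription factor was lower. Of the 20 chemokines and cytokines tested, 16 were below 0 (median -0.51) and 4 had an unadjusted p under 0.05, all lower (2.76% of all genes). Without tolerized 2 the median was -0.20, and 2 genes had an unadjusted p under 0.05. Ccl4, a chemokine of T cells and monocytes, stood at 312, 203, 156 and 156 CPM (-0.73), while Il1b stood at 1952, 2961, 2140 and 1782 CPM and overlapped between the groups. Ribosomal protein genes were above 0 in 67 of 88 (median 0.10), with 11 at an unadjusted p under 0.05, all higher in tolerized kidneys (2.36% of all genes). Their median was 0.32 with 35 higher without rejecting 1 (5.87%), and -0.04 with 15 higher and 5 lower without rejecting 2 (5.02% and 4.3%).

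**Figure D4:**
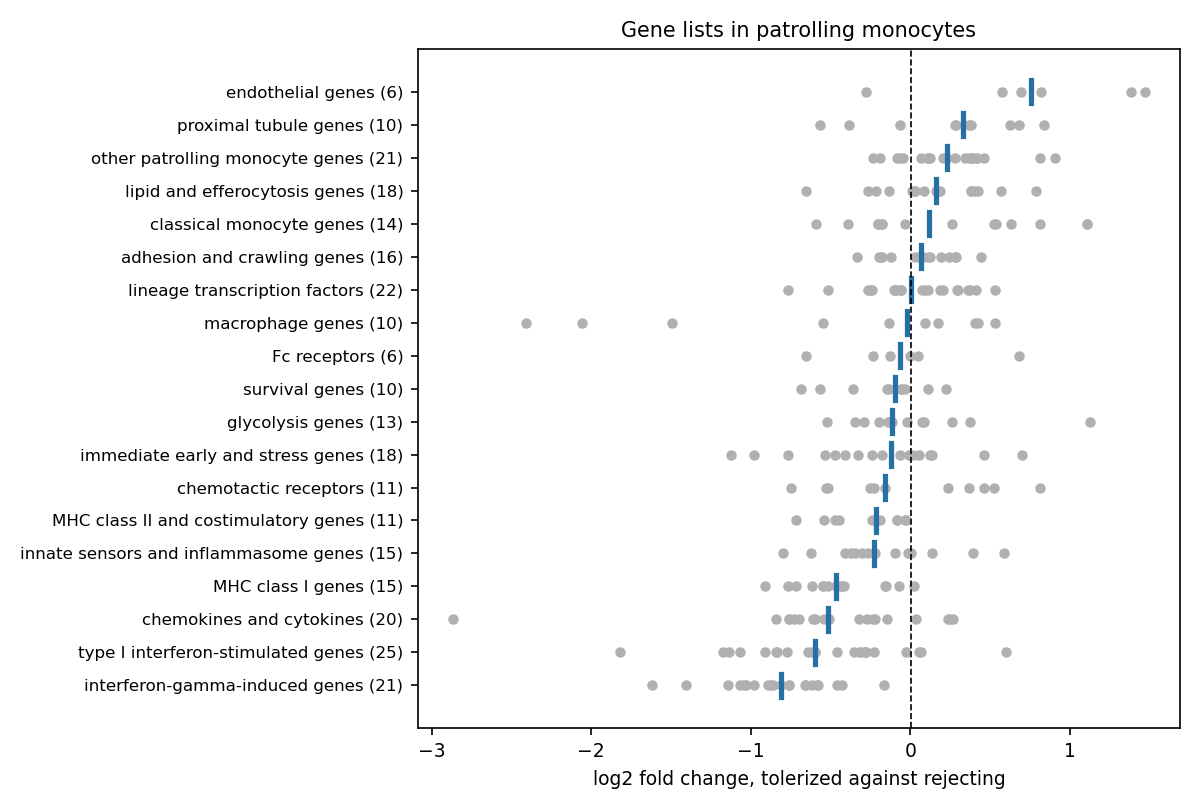
Log2 fold change (tolerized over rejecting, x axis) of each tested gene of the gene lists in patrolling monocytes. Dots are genes, blue bars list medians and the dashed line the median of all genes (0.0057); the interferon-γ list has the median -0.81, and the 3 lowest dots of the macrophage list are C1qa, C1qb and C1qc, which belong to the rule.

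By unadjusted p, the 8 foremost genes in each direction with a mean of at least 20 CPM were drawn out, none of which passed (adjusted p = 0.43 for each, edgeR). Higher in tolerized kidneys were S100a9, Rpl41, Gm2000, Rps27rt, S100a8, Mef2c, Rps28 and Rpl38, of which Rpl41, Rps27rt, Rps28 and Rpl38 are ribosomal by name. Rpl41, which encodes the shortest ribosomal protein, stood at 1188, 1130, 3062 and 2543 CPM (1.27 ± 0.22 SE). Mef2c, a transcription factor of muscle and myeloid cells, stood at 69.3, 81.8, 149 and 177 CPM (1.11 ± 0.22 SE). S100a9, a calcium-binding protein of neutrophils and classical monocytes, stood at 2.59, 6.16, 199 and 57.0 CPM (4.96 ± 0.74 SE), and its partner S100a8 at 3.24, 7.04, 190 and 36.1 CPM (4.56 ± 0.87 SE). The S100 genes were thus highest in tolerized 1, whose members also had the highest sum of hemoglobin genes. With called doublets left out, S100a9 was no longer tested and S100a8 had a log2 fold change of 2.01 (adjusted p = 0.947, edgeR), with 0 of the 2 tested genes of the neutrophil list at an unadjusted p under 0.05 (2 of 3 before), where 2.16% of all genes were higher and 2.82% lower.

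Lower in tolerized kidneys were Gstp1, Hsph1, Gm36161, F830016B08Rik, Sirpb1a, Gbp6, AW011738 and Alpk1. Gstp1, a glutathione transferase with a close copy in the genome, stood at 153, 103, 22.6 and 35.3 CPM (-2.20 ± 0.31 SE). Hsph1, a heat shock protein, stood at 84.2, 86.2, 30.6 and 35.3 CPM (-1.38 ± 0.22 SE). The heat shock genes Hspa1a (258, 311, 152 and 107 CPM) and Hsp90aa1 (1017, 856, 513 and 434 CPM) were lower without overlap too, while Dusp1, an immediate early phosphatase, was higher, at 325, 408, 610 and 578 CPM. These genes were picked from the list of immediate early and stress genes, of which 18 were tested. Of the 18, 3 were higher and 5 lower without overlap (17.2% and 16.7% of all genes). At an unadjusted p under 0.05, 1 was higher and 3 were lower (2.36% and 2.76%). The median of the list was -0.12. It was -0.07 without rejecting 1 and -0.27 with 3 of the 4 markers required, where 17 of 18 were below 0.

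Other values moved between the groups beside these genes. The 8 T cell genes, of which none was at 0 in rejecting 1, summed to 264 raw CPM there (led by Cd3g), 41.2 in rejecting 2 (1 gene at 0), 19.0 in tolerized 1 and 21.5 in tolerized 2, although barcodes with Cd3e were outside the rule. The 7 NK cell genes summed to 119, 3.66, 18.1 and 31.1 raw CPM, led by Nkg7 in the rejecting kidneys. T cell genes were thus highest in rejecting 1, and in rejecting 2 their sum was also above that of both tolerized kidneys. The 7 endothelial genes summed to 23.2 and 14.5 raw CPM (naive), 219 and 86.0 (rejecting) and 282 and 179 (tolerized), led by Flt1 in both rejecting kidneys and by Emcn in tolerized 1, and 5 of the 6 tested were above 0 in tolerized kidneys (median log2 fold change 0.76, none at an unadjusted p under 0.05). That median was -0.06 without rejecting 2 and 4.40 without rejecting 1. With called doublets left out, 3 of the 6 tested endothelial genes were below 0. Against C1q-high macrophages all 6 were higher (27.0% of all genes, median 2.95), and against Ly6c2 monocytes none was called (median 0.45). Median depth was also higher in tolerized members. The parts of depth, T cell RNA, tubule RNA, endothelial RNA and the S100 and hemoglobin RNA of tolerized 1 in the gene differences were not tested.

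Naive patrolling monocytes were described and not tested, because naive 1 held fewer than 20 members. Summed over 23 genes induced by interferon-γ, they had 278 and 262 raw CPM, or 270 ± 11.3 (SD, n = 2). In rejecting kidneys the sum was 6589 and 8390 raw CPM (7489 ± 1273, SD, n = 2), and in tolerized kidneys 4874 and 3398 raw CPM (4136 ± 1044, SD, n = 2). The 3 groups did not overlap, and the rejecting kidneys were the highest.

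In naive members Cxcl9, Cxcl10, Gbp5 and Cd274 had 0 UMIs in both kidneys, where 3 counts, the limit that a count of 0 allows, correspond to 69.5 and 43.6 raw CPM. Gbp2 had 1 UMI in each naive kidney, against 1007 and 1169 raw CPM (rejecting) and 584 and 366 (tolerized). For Gbp2, too, both tolerized kidneys lay between the naive and the rejecting kidneys.

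For type I interferon genes the sums of naive and transplanted kidneys lay closer together. The 26 genes summed to 5926 and 5308 raw CPM (naive), 7944 and 6676 (rejecting) and 6485 and 6091 (tolerized). The sum was led by Ifitm3, which had 3264 and 2807 raw CPM (naive) and 3214 to 3838 in transplanted kidneys. Class II and costimulatory genes summed to 8913 and 7548 raw CPM (naive), 19672 and 20461 (rejecting) and 18490 and 16238 (tolerized), and class I genes to 7292 and 8173, 13521 and 15360, and 11044 and 12703 raw CPM. For both antigen presentation lists the transplanted kidneys lay above the naive ones, and the rejecting above the tolerized. The 92 ribosomal protein genes summed to between 133716 and 169360 raw CPM over the 6 kidneys, and the groups overlapped.

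The 21 patrolling genes summed to 9839 and 8289 raw CPM (naive), 7302 and 8763 (rejecting) and 7755 and 9102 (tolerized), so that all 3 groups overlapped. Within this list Nr4a1 stood at 949 and 654 raw CPM (naive), 329 and 653 (rejecting) and 404 and 657 (tolerized). Klf2 stood at 2639 and 1149 raw CPM in naive kidneys and 966 to 1132 in the transplanted ones. Cebpb, outside the list, stood at 4815 and 2792 raw CPM (naive), 1527 and 2616 (rejecting) and 1176 and 2054 (tolerized). Both naive kidneys were the highest for Klf2 and Cebpb, and for Nr4a1 naive 2 overlapped the transplanted kidneys. Naive 2 lay only just above the highest transplanted kidney, at 1149 against 1132 raw CPM for Klf2 and 2792 against 2616 for Cebpb. As naive values rest on few molecules, that order is open to counting error.

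**Figure D5:**
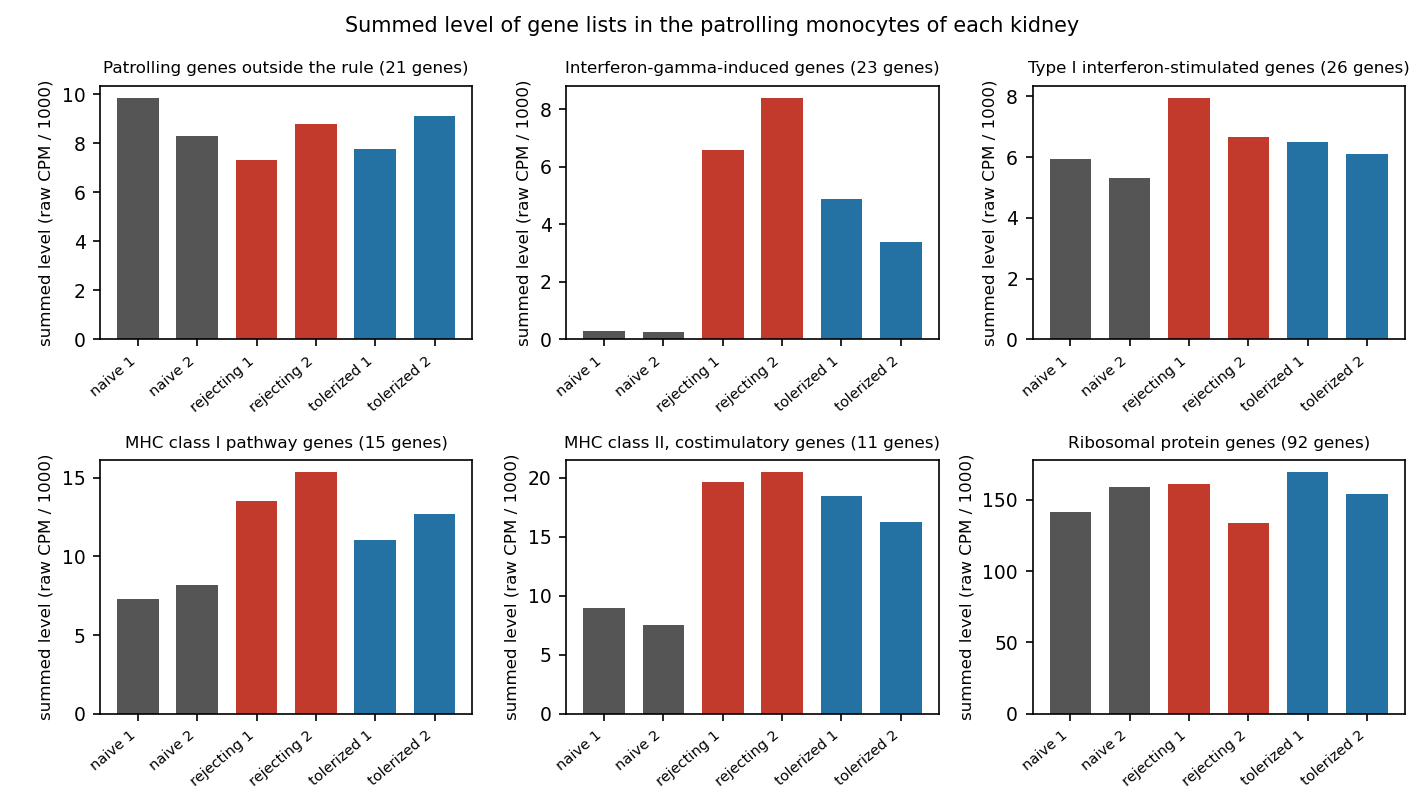
Summed raw CPM (divided by 1000, y axis, from 0) of 6 gene lists in patrolling monocytes of each of the 6 kidneys (x axis). Bars are single kidneys; the interferon-γ list goes from 262 and 278 raw CPM in naive to 6589 and 8390 in rejecting kidneys, while the list of 21 patrolling genes overlaps between the groups.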

How the data were processed

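The authors deposited gene-by-barcode matrices of whole-number counts (UMI counts), 1 per kidney, on genome build mm10. The matrices of the transplanted kidneys carry the version CellRanger 3.0.1 in their headers; no aligner version for the naive ones was given in the sources used here. Gene tables held 31053 (transplanted) and 28692 (naive) genes, 28208 of them shared. Total UMIs per deposited library ran from 34874702 (naive 2) to 96803926 (tolerized 1).

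Barcodes were classed by the UMI limits given above, and the members and the gene lists were chosen with earlier results of these data known. UMIs were summed per kidney and class and tested in edgeR 4.0.16 (R 4.3.3; TMM, filterByExpr, quasi-likelihood test, Benjamini-Hochberg adjustment). Raw CPM used no TMM factor and, for naive kidneys, the genes found in the transplanted table. DESeq2 1.42.0 served as an alternative. Doublets were kept, and in an alternative the barcodes with the highest Scrublet scores (scanpy 1.11.5), 0.8% per 1000 barcodes, were left out. The statistical scripts were tested on simulated data. Shares were compared by exact permutation over kidneys. The study describes 2 experiments with kidneys of various groups handled alongside each other. The labels do not tie kidneys to an experiment, and a supplementary figure of the study that colours kidneys by experiment was not used here. The p-values thus measure the spread between these samples, and no experiment term was fitted.

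Genes named in the text were the rule markers, Axl and Cebpb, up to 4 members of each list with the highest CPM, and the 8 with the largest fold change per direction past the FDR with the same sign in all kidneys. Where fewer passed, the smallest unadjusted p at a mean of at least 20 CPM filled the list. Other members named (such as Nr4a1, Hes1, Gbp5, Cd274, Isg15, Ifit2, H2-Q4, Cd40, Ccl4, Hspa1a and Dusp1) were chosen after their values were seen. Alternatives were the test, size factors, the filter, the replicate number as a block, all 6 kidneys in 1 fit, stricter member rules and leaving out each kidney. Values of a few listed genes are not reported here, although the list counts include them.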

Additional observations from a re-analysis of the deposited data

Results flagged for a closer look

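The change from rejecting to tolerized kidneys differed between patrolling and Ly6c2 monocytes for 7 of 9107 genes by the interaction term (edgeR, FDR under 0.05), and all 7 differences were negative. Each difference below is the log2 change in patrolling monocytes minus that in Ly6c2 monocytes. Spp2, a secreted phosphoprotein, differed by -3.28 ± 0.38 SE, with a log2 ratio of tolerized to rejecting of 0.95 in patrolling and 4.18 in Ly6c2 monocytes (adjusted p = 0.0048). Slc34a1, the phosphate transporter of the proximal tubule, differed by -2.70 (0.37 against 2.94), and Amn, a subunit of the tubular protein receptor, by -2.90 (-0.03 against 2.65). Miox, an inositol oxygenase of the kidney, differed by -2.40 (-0.07 against 2.37), Gpx3, a glutathione peroxidase secreted by the tubule, by -2.10 (0.90 against 2.84), Tmem27 by -1.90 (0.75 against 2.66) and Plscr2 by -1.66 (0.23 against 1.82). Slc34a1 and Miox belong to the list of proximal tubule genes, whose sum in Ly6c2 monocytes was 2160 and 1880 raw CPM in rejecting and 3674 and 6191 in tolerized kidneys. In patrolling monocytes the sum was 5043 and 4353 in rejecting and 8970 and 4182 raw CPM in tolerized kidneys. Tolerized 2, with 58 Ly6c2 monocytes, had the highest sum in the former and the lowest in the latter among the transplanted kidneys, and what part it had in the 7 differences was not tested.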

How the results depend on the processing

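Numbers and shares of patrolling monocytes depended on the rule. The difference in number, tolerized minus rejecting, was -0.5 cells and turned to 54.5 with 3 of the 4 markers, 17.5 with fewer than 3 C1q UMIs, 5.5 without called doublets, 4.5 at 1000 or more UMIs and 2.5 after thinning. It was -32.5 among members without Ly6c2 and Ccr2 UMIs and -86.0 without members holding tubule UMIs, and among the member rules tried only in these did the numbers not overlap, with tolerized lower in both. Leaving out each kidney gave -120 to 119. The difference as a percentage of kept barcodes (0.384) was -0.147 among members without Ly6c2 and Ccr2 UMIs, and -0.415 to 1.18 with each kidney left out. Without members holding Lrp2, Kap or Slc34a1 UMIs, which removed all members of both naive kidneys and of tolerized 2, tolerized minus rejecting was -0.976 for kept, -1.41 for Ptprc (3.76 before) and -3.63 for Csf1r barcodes (9.56 before). In the same setting the Ptprc share was 1.62 for rejecting minus naive (-5.21 before) and 0.216 for tolerized minus naive (-1.45 before). The last was 0.899 with 3 of 4 markers, -3.11 among members without Ly6c2 and Ccr2 UMIs, -2.84 after thinning and -2.33 under 20% mitochondrial UMIs. It was -2.41 without naive 1 and -0.48 without naive 2. For Csf1r barcodes rejecting minus naive was -1.30 after thinning (5.91 before). The rules on markers, C1q, Ly6c2 and Ccr2, and tubule UMIs were put on the members only. The barcodes those members were set against were not filtered. The causes were not tested.

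The count of genes called between tolerized and rejecting kidneys was 0 in edgeR, 22 in DESeq2, 146 without the filter on low counts, 6 with all 6 kidneys in the fit and 2 to 48 with each kidney left out, where the lone sample is assumed to vary like the other group. Of these counts, 39 was without rejecting 1, 2 without rejecting 2, 21 without tolerized 1 and 48 without tolerized 2. With the replicate block it was 0; the deviations of same-numbered kidneys correlated at 0.021 across 5399 genes, and the 2 numbers could not establish pairs. Against Ly6c2 monocytes 2542 genes were called, and 1589 to 2137 with each kidney left out, the lowest without rejecting 2. The interaction with Ly6c2 monocytes had 7, 11 in DESeq2 and 71 without the filter, and that with C1q-high macrophages 0, with 69 without the filter.

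Signs of small log2 changes, tolerized over rejecting and passed by none, turned as follows. Ifi27l2a was 0.036 with the block and 0.0029 under 3 C1q UMIs. Ifitm3 was -0.079 and Klf2 -0.017 with 3 markers, and -0.16 and -0.29 without Ly6c2 and Ccr2 UMIs. Axl was 0.17 without doublets, and H2-Aa 0.016 under 20% mitochondrial UMIs. With each kidney left out, the values spanned 0 in Ifi27l2a (-0.40 to 0.47), Ifitm3 (-0.096 to 0.24), Klf2 (-0.0014 to 0.21), Axl (-0.33 to 0.057), H2-Aa (-0.068 to 0.010), B2m (-0.25 to 0.35), Gngt2 (-0.31 to 0.14), Nr4a1 (-0.27 to 0.72), H2-K1 (-0.27 to 0.15), H2-D1 (-0.40 to 0.063), Il1b (-0.60 to 0.0074) and Cebpb (-0.81 to 0.13). Of all values of single genes under the alternatives, 1293 kept their direction and side of the threshold, 69 gained a call and 5 lost it: Cd74 (3 settings) and Siglec1 against Ly6c2 monocytes, and Fcgr4 against macrophages. The gene comparison with naive kidneys and its alternatives, and the gene fit without tubule UMIs, were not run. Depth limits naive values to 43304 and 68952 UMIs.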

Other observations

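Lists that held no gene past an FDR of 0.05 and few at an unadjusted p under 0.05 filled the rest of the comparison of tolerized with rejecting kidneys in patrolling monocytes. Among all genes 2.36% were higher and 2.76% lower at an unadjusted p under 0.05, and without rejecting 1 these shares were 5.87% and 5.55%, without rejecting 2 5.02% and 4.3%, without tolerized 1 1.89% and 2.18%, and without tolerized 2 1.78% and 1.93%. Of 11 chemotactic receptors 6 were below 0 (median log2 fold change -0.16), with 1 higher and 1 lower at an unadjusted p under 0.05. Their median was -0.34 without rejecting 1 and 0.16 without rejecting 2. Of 18 lipid and efferocytosis genes 14 were above 0 (median 0.16), with 1 at an unadjusted p under 0.05, higher. The median of the lipid list was 0.20 without rejecting 1, 0.06 without rejecting 2 and 0.10 without tolerized 1. Of 15 innate sensors and inflammasome genes 11 were below 0 (median -0.23), 6 of them without overlap (16.7% of all genes). None of the 15 had an unadjusted p under 0.05. Their median was -0.37 without rejecting 1, -0.16 without rejecting 2 and -0.135 without tolerized 2. The survival list had a median of -0.10 (10 genes, 1 lower at an unadjusted p under 0.05), which was -0.43 without rejecting 1 (5 lower) and 0.05 without rejecting 2 (1 higher). Glycolysis genes had a median of -0.12 (13 genes, 1 higher), which was 0.05 without rejecting 1 (2 lower) and 0.03 without tolerized 2. The classical monocyte list had a median of 0.12 (14 genes, 1 higher), which was -0.41 without tolerized 1 (4 lower at an unadjusted p under 0.05, none higher) and 0.49 without tolerized 2 (5 higher, none lower), and the Fc receptor list one of -0.06 (6 genes, 1 higher and 1 lower), which was -0.24 without rejecting 1 and 0.06 without rejecting 2.

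Ly6c2 and Ccr2, which the rule left free, were present in the members at 394 and 291, 334 and 280, and 278 and 235 raw CPM (Ly6c2) and at 185 and 145, 296 and 227, and 441 and 285 raw CPM (Ccr2) in naive, rejecting and tolerized kidneys. In Ly6c2 monocytes, which were cut on both genes, Ly6c2 stood at 1152 to 2111 raw CPM.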
